A study of Rattus norvegicus with 14 samples.

Results

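The genes described here are 31 myelin and oligodendrocyte lineage genes out of 22093 genes with a single symbol in the array annotation. They were chosen by gene name, as 2 groups: 19 genes of mature oligodendrocytes and myelin, from Mbp to Ppp1r14a, and 12 precursor and lineage genes, from Pdgfra onward. A gene's value is that of its brightest probe set (highest mean of the 14 arrays), and only Neu4 had more than 1 probe set. All 31 had a mean above 5.79, the lowest array median, used as a rough mark of dim signal. No member was therefore lost to a filter on low values. Neu4 (mean 6.13) and Matn4 (6.14) lay nearest to that mark, and Neu4 fell below it on MSC replicate 3 (5.76).

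The RNA was motor cortex RNA, taken from male rats after spinal cord injury (SCI), with 7 arrays after intravenous infusion of MSC and 7 after vehicle. MSC is not spelled out in the labels and commonly stands for mesenchymal stem (stromal) cells; no source used here says where they came from. Every rat was injured, was infused by way of a femoral vein at 24 hours after the injury and was given cyclosporine A daily, and tissue was taken 3 days after the infusion. Strain, age and an uninjured group are not given in the labels, so MSC and vehicle can be compared, but injury cannot. For MSC replicate 7 the title, source name and treatment give MSC but the description gives vehicle, and it was kept as MSC. The labels do not state whether the 14 arrays are 14 rats. The p-values therefore refer to array-to-array spread, some of which may be technical.

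Oligodendrocytes wrap axons in myelin, a stack of membrane held together by adhesive proteins and rich in particular lipids, and they arise from dividing precursor cells that persist in the adult cortex. Precursors carry the PDGF alpha receptor and the NG2 proteoglycan, pass through a short committed stage, and then switch on the myelin genes under SOX, OLIG and MYRF transcription factors. In motor cortex the myelinated fibres are densest in the deep layers and in the white matter below.

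Several arrays stood apart in markers of neighbouring tissue. Markers of choroid plexus, the secretory tissue of the ventricles, were high on MSC replicate 4 and vehicle replicate 2, with the 10-gene score at 2.87 and 2.96 against -0.68 to 0.019 on the other arrays. Transthyretin (Ttr), its main secreted protein, read 16.91 and 16.81 there and 6.63 to 10.01 elsewhere. Meningeal markers were high on MSC replicate 2 (0.92) and vehicle replicate 2 (0.76), and striatal markers on MSC replicate 6 (0.77). A score is the mean over a list of each gene's log2 value minus that gene's mean over the 14 arrays. All such arrays were kept, and values without them are given where they matter. In bulk tissue, fewer cells of a type and less RNA per cell cannot be told apart.

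The question was whether myelin and oligodendrocyte lineage genes differ in the motor cortex between rats given MSC and rats given vehicle. No member differed beyond the spread between arrays: 0 of 31 passed an adjusted p of 0.05 in limma, as did 0% of the 68842 probe sets tested, and the adjusted p of every member was 0.9999. At an unadjusted p below 0.05 there was 1 member of 31, Cspg5, which was lower in MSC arrays. With all arrays the same cutoff held for 3.41% of probe sets (2345 of 68842) and 2.77% of named genes. It held for 1.6% of named genes when only those lower in MSC arrays are counted. Leaving out 1 array at a time gave 1 to 3 members, beside 1929 to 3417 of the 68842 probe sets. The 3 members (Qdpr, Neu4 and Cspg5) came without vehicle replicate 1, where the probe sets numbered 3417. The ranges of the 2 groups overlapped for 31 of 31 members, while they did not overlap for 0.0362% of all named genes and 0.032% of probe sets. The mature genes had a median log2 difference, MSC minus vehicle, of -0.031, and the precursor and lineage genes of -0.045, beside -0.0038 over all named genes. The arrays themselves differed more: the mean of the mature genes spanned a 1.85-fold range over the 14 arrays, with high and low arrays in both groups.

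**Figure D1:**
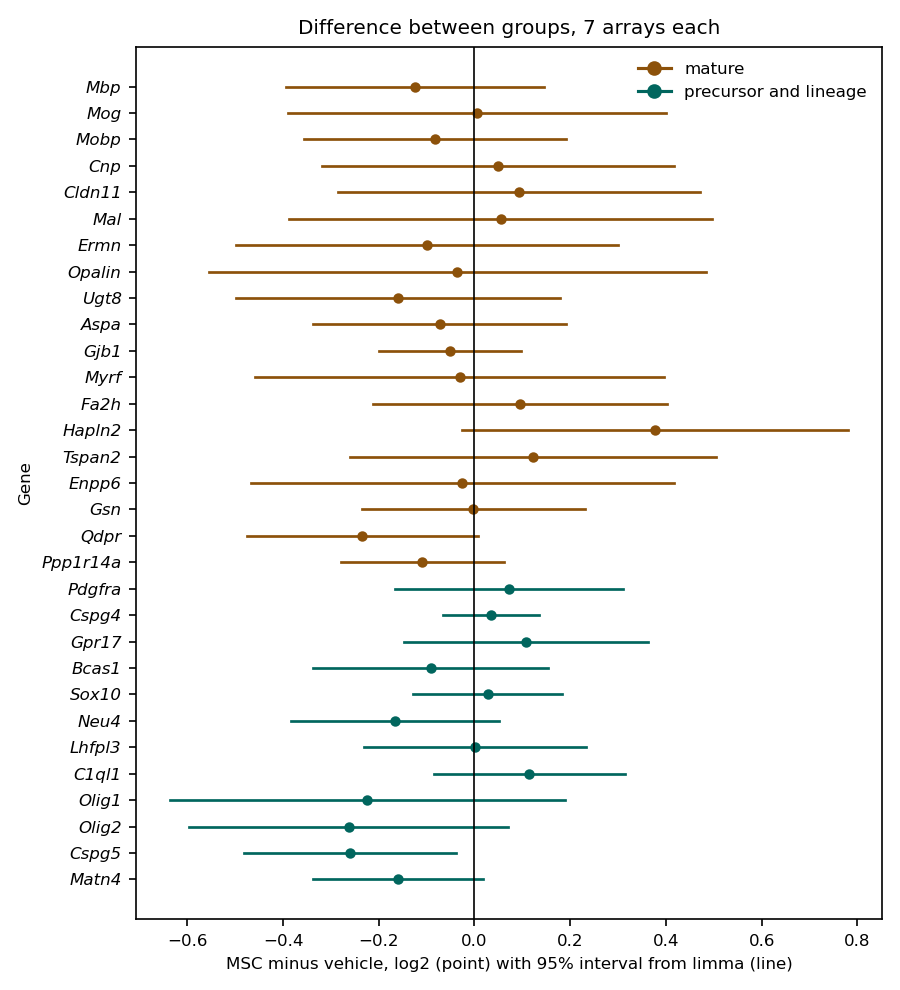
Difference between groups for each of the 31 genes (points, MSC minus vehicle on the log2 scale, 7 arrays each) with its 95% interval from limma (lines), mature genes in brown and precursor and lineage genes in green. The interval of Cspg5 lies below 0 and the other 30 intervals include 0, with Hapln2 farthest to the right at 0.38.

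The intervals set bounds on what could have been missed. For 28 of 31 members the 95% interval stayed within 1.5-fold up or down, and for 31 of 31 it stayed within 2-fold. These bounds hold for the array signal. The median half-width of the intervals was 0.27 on the log2 scale.

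The amount of myelin signal per array was the main pattern among these genes. The mature score ran from -0.41 on MSC replicate 3 to 0.48 on MSC replicate 4, a 1.85-fold range. In the MSC group the other 5 arrays lay between -0.11 and 0.043. In the vehicle group the score ran from -0.29 on replicate 2 to 0.37 on replicate 5, with replicates 4 and 6 at 0.17 and 0.20. High and low arrays therefore occurred in both groups. The group means were -0.0061 ± 0.27 for MSC and 0.0061 ± 0.24 for vehicle (SD, n = 7 each), a difference of -0.012 ± 0.14 (SE) that is far smaller than the spread within either group.

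The order of arrays was shared by most mature genes. MSC replicate 4 was the highest of the 14 arrays for 8 of the 19 genes and among the highest 3 for 16. Vehicle replicate 5 was among the highest 3 for 13 and above the gene mean for 19 of 19. MSC replicate 3 was the lowest array for 12 of 19, and vehicle replicate 2 was among the lowest 3 for 12. The same arrays thus carried high or low signal of structural proteins, lipid enzymes and Myrf alike.

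**Figure D2:**
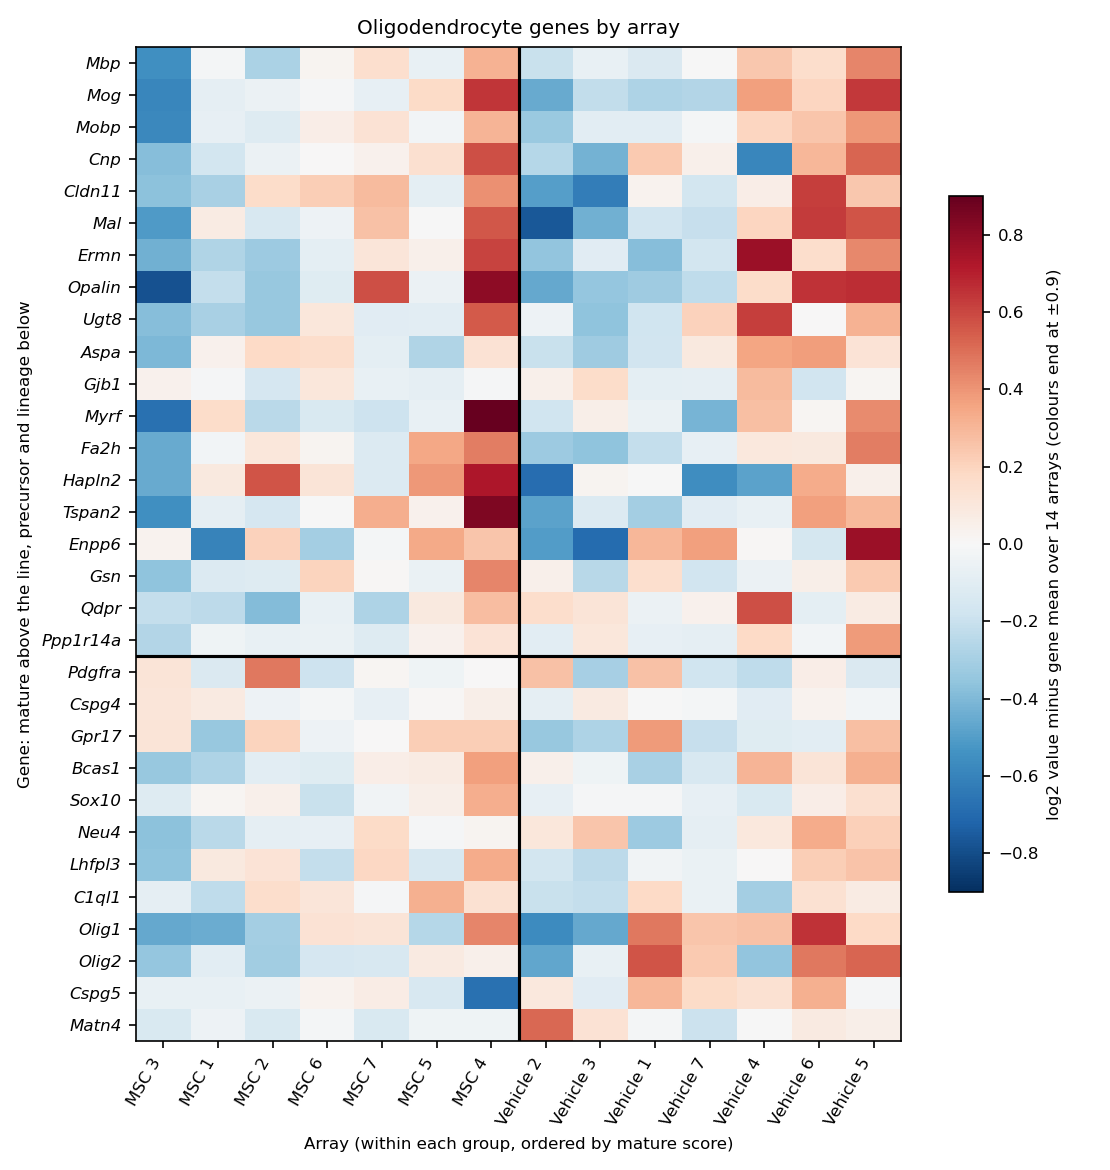
Log2 value of each gene minus its mean over the 14 arrays (colour, ending at ±0.9), with arrays in columns, ordered within each group by the mature score, and genes in rows. MSC 4 and Vehicle 5 are red and MSC 3 is blue for most mature genes above the line, while the precursor and lineage genes below it vary less alike.

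**Figure D3:**
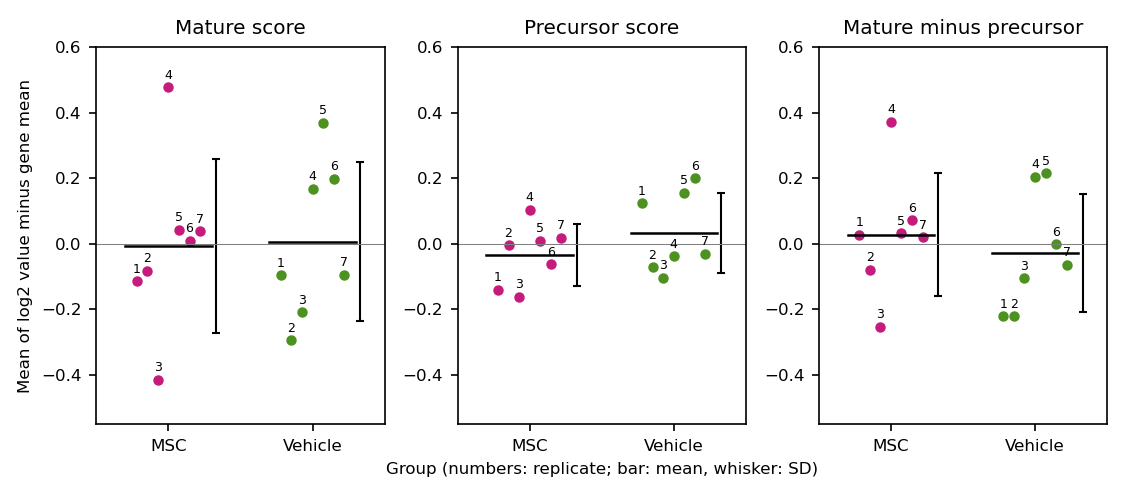
Mature score, precursor score and their difference for each array (points, numbered by replicate) in the MSC and vehicle groups, with mean (bar) and SD (whisker). The mature scores of both groups overlap, from -0.41 to 0.48 in MSC and from -0.29 to 0.37 in vehicle arrays.

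Covariation was strong among mature genes and weak among precursor genes. After the group means were removed, the median Pearson correlation over the 14 arrays was 0.62 across the 171 pairs of mature genes and 0.11 across the 66 pairs of precursor and lineage genes. Pairs with a gene from each group had a median of 0.27. Over all pairs of 14138 named genes above the dim mark the median was 0.031, with a 95th percentile of 0.58. The mature genes also varied more within groups (median SD 0.36) than the precursor and lineage genes (0.21). The part of this in the contrast of correlations was not tested. The pairs share arrays and genes, so these correlations are a description. They did not rest on MSC replicate 4, without which the mature median was 0.53, and within replicates 1 to 5, in both groups, it was 0.68 (10 arrays).

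Mbp and Mobp, which encode basic proteins that hold the cytoplasmic faces of myelin together, followed each other most closely (r = 0.96, rho = 0.97). Opalin, a membrane protein of oligodendrocytes, and Tspan2, a tetraspanin, had r = 0.95 (rho = 0.93). Mog, a surface glycoprotein of the outermost myelin layer, and Fa2h, which hydroxylates the fatty acids of myelin lipids, had r = 0.93 (rho = 0.91). Mal, a proteolipid of myelin rafts, and Opalin had r = 0.93 (rho = 0.95). Of the 19 mature genes, 11 had a correlation above 0.75 with the mean of the other 18, led by Mog at 0.96 and Mobp at 0.95. Some mature genes followed less closely. Qdpr, a dihydropteridine reductase, had r = 0.40 and 0.12 without MSC replicate 4. Gjb1, the gap junction protein connexin 32, had r = -0.090 and was the only mature gene below 0. Its within-group SD was the lowest of the mature genes (0.13).

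**Figure D4:**
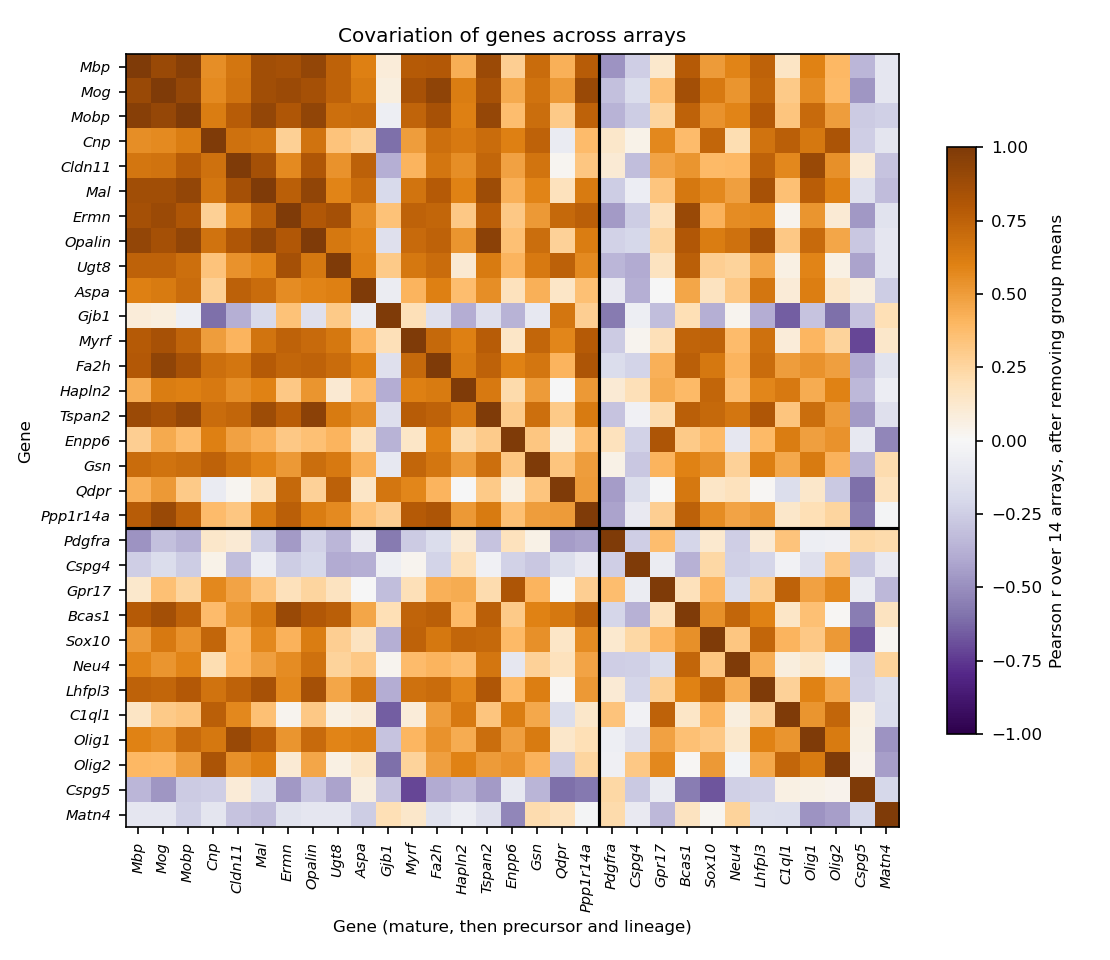
Pearson correlation between each pair of the 31 genes over the 14 arrays after removing group means (colour from -1 to 1), mature genes first, with black lines between the groups. The block of mature genes is mostly orange, with paler Qdpr and Enpp6 rows, while the Gjb1 and Cspg5 rows are mostly purple.

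Enpp6 followed the mean of the other mature genes less closely (r = 0.42). Its promoter and those of 4 closely covarying genes are shown so that their letters can be set side by side. Each is the 300-base window from 250 bases before to 50 bases after the gene's start in RefSeq on assembly GRCr8, printed 5′ to 3′ in the direction of the gene. Capitals mark matches on either strand. The forms searched for SOX factors were ACAAAG and, with fewer matches, AACAAT. The E-box forms, of the kind OLIG2 and other basic helix-loop-helix factors bind, were CAGCTG and the related CATCTG. The form searched for MYRF was CTGGCAC. The TATA box was searched as TATAAA. The windows are Mobp at chr8:128746982-128747281 (+ strand), Mal at chr3:135341374-135341673 (- strand), Opalin at chr1:249858141-249858440 (- strand), Tspan2 at chr2:192866030-192866329 (+ strand) and Enpp6 at chr16:52026679-52026978 (- strand).
Mobp: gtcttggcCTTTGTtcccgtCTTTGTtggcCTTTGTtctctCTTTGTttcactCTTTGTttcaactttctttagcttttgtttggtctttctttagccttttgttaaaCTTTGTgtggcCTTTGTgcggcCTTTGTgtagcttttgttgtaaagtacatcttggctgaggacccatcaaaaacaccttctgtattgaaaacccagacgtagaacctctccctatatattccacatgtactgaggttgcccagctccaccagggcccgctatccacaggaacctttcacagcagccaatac
Mal: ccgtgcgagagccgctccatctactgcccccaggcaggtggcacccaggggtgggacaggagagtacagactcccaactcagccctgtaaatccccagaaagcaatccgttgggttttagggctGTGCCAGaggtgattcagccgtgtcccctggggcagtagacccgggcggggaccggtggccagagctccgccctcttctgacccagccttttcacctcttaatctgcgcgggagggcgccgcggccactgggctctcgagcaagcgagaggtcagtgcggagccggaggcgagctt
Opalin: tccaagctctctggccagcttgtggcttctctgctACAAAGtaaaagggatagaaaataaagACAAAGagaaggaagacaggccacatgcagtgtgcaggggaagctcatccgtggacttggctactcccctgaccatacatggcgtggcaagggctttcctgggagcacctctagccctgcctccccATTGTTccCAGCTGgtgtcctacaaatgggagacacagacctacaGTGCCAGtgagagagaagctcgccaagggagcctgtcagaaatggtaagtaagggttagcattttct
Tspan2: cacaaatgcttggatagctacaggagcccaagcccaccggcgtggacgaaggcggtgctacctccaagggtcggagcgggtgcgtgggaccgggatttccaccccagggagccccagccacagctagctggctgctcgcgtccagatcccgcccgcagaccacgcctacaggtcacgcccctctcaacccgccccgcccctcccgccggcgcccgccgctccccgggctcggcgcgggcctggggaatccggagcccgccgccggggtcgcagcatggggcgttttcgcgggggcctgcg
Enpp6: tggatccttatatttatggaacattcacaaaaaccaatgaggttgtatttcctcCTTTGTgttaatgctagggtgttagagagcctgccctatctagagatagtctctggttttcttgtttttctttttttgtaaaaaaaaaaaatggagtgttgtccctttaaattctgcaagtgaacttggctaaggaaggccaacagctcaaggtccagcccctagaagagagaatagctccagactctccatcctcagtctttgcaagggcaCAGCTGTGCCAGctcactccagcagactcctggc

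The 4 covarying genes did not share a common set of these letters. Mobp held 8 matches to the first SOX form, all on the opposite strand, and no other motif. Opalin held 2 matches to that form and 1 each to the second SOX form, the first E-box form and the MYRF form. Mal held 1 match to the MYRF form and Tspan2 held none. In Enpp6, which also held 1 match to the first SOX form, the first E-box form and the MYRF form overlap and are printed as a single run of capitals. Of the 22 members with a promoter in the table, 6 held the MYRF form (Cnp, Mal, Opalin, Hapln2, Enpp6 and Olig2), or 27.3% against 4.61% of all 27457 promoters of that length. The first E-box form was in 31.8% against 15.1% and the other in 9.09% against 16.3%. The first SOX form was in 22.7% against 18.3% and the second in 13.6% against 11.6%. The TATA box was in 9.09% against 14.3%. A match is a string of letters and not a measured binding site.

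Among the structural proteins of myelin no gene separated the groups. Mbp read 10.03, 10.56 and 10.89 (lowest, median and highest of 7) in MSC and 10.38, 10.58 and 11.02 in vehicle arrays, a difference of -0.12 ± 0.13 (SE). Mobp read 13.90, 14.45 and 14.79 against 14.14, 14.46 and 14.87 (-0.083 ± 0.13). In both genes the lowest array was MSC replicate 3 and the highest vehicle replicate 5, and the groups overlapped over most of their range. Without MSC replicate 3 the differences were -0.042 for Mbp and 0.0062 for Mobp. Mog read 11.04, 11.58 and 12.28 against 11.18, 11.41 and 12.27 (0.0052 ± 0.19). Its highest arrays, MSC replicate 4 and vehicle replicate 5, stood level, 1 in each group, and its difference was -0.10 without MSC replicate 4 and 0.10 without MSC replicate 3.

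Further proteins of the myelin membrane and its cytoskeleton did not separate the groups either. Cnp, the cyclic nucleotide phosphodiesterase of myelin, differed by 0.049 ± 0.17 (SE), Cldn11, a claudin that seals the myelin layers, by 0.093 ± 0.18, and Mal by 0.055 ± 0.21. Opalin differed by -0.036 ± 0.24, Tspan2 by 0.12 ± 0.18 and Ermn, a cytoskeletal protein of late oligodendrocytes, by -0.10 ± 0.19. Each of these differences was smaller than its standard error. Their signs also turned with single arrays: without MSC replicate 4, Tspan2 stood at -0.0082, and without MSC replicate 3, Opalin stood at 0.093. Cnp was an exception in order, since vehicle replicate 4, high for most mature genes, had its lowest value (10.79).

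Enzymes of myelin lipids and metabolism pointed in different directions. Ugt8, the galactosyltransferase that makes the main myelin glycolipid, read 12.33, 12.60 and 13.26 in MSC and 12.34, 12.71 and 13.33 in vehicle arrays (-0.16 ± 0.16, SE). Fa2h differed by 0.095 ± 0.14 and Aspa, which releases acetate from N-acetylaspartate for lipid synthesis, by -0.073 ± 0.12. Qdpr had the largest negative difference of the mature genes, at 10.18, 10.35 and 10.85 in MSC and 10.48, 10.64 and 11.15 in vehicle arrays (-0.23 ± 0.11, unadjusted p = 0.056, adjusted p = 0.9999 in limma). Of the 7 MSC arrays, 6 lay below the vehicle mean, MSC replicate 4 being the exception. The highest vehicle value came from replicate 4, and without that array the difference was -0.16. Without MSC replicate 4 it was -0.30 (unadjusted p = 0.012 in limma). The unadjusted p was also below 0.05 without MSC replicate 5, vehicle replicate 1 or vehicle replicate 6. None of these passed the adjustment.

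Hapln2, a link protein of the matrix at nodes of Ranvier, had the largest positive difference. It read 7.93, 8.49 and 9.11 in MSC and 7.69, 8.38 and 8.71 in vehicle arrays, 0.38 ± 0.19 (SE; unadjusted p = 0.065, adjusted p = 0.9999 in limma), with 6 of 7 MSC arrays above the vehicle mean. MSC replicates 4, 2 and 5 lay above every vehicle array and vehicle replicates 2, 7 and 4 below every MSC array. The difference shrank to 0.20 without MSC replicate 4 and vehicle replicate 2, the arrays with high choroid plexus markers, and to 0.23 without MSC replicate 2 and vehicle replicate 2, those with high meningeal markers. It was 0.48 within replicates 1 to 5 and 0.11 within replicates 6 and 7. Other settings widened it, to 0.48 without MSC replicate 3, 0.46 without vehicle replicate 6 and 0.43 without MSC replicate 7. In each of these 3 the unadjusted p in limma was below 0.05. The same held after repeated quantile normalization (0.39) and with MSC replicate 7 counted as vehicle (0.42). None of these passed the adjustment.

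The rest of the mature genes gave small differences. Myrf, the transcription factor that switches on myelin genes, spread more widely in MSC (8.72, 9.25 and 10.42) than in vehicle arrays (8.98, 9.41 and 9.82), with a difference of -0.031 ± 0.20 (SE). Its highest value came from MSC replicate 4, without which it stood at -0.20. Gsn, an actin-severing protein, differed by -0.0027 ± 0.11, Gjb1 by -0.051 ± 0.070 and Ppp1r14a, an inhibitor of myosin phosphatase, by -0.11 ± 0.080. In all, 12 of the 19 mature genes had lower means in MSC arrays (63.2%), beside 52.4% of all named genes, and 7 had higher means, beside 47.6%. After median centring 11 of 19 were lower, beside 42.3% of all named genes, and after repeated quantile normalization 11 of 19, beside 42.4%.

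Enpp6 followed some precursor genes more closely than the mean of the mature genes. This gene encodes a choline phosphodiesterase first made by newly forming oligodendrocytes, and it correlated at 0.42 with the mean of the other mature genes and at 0.81 (rho = 0.75) with Gpr17, a receptor of committed precursors. Gpr17 in turn correlated at 0.75 (rho = 0.79) with C1ql1, a secreted protein of precursors. Enpp6 itself correlated at 0.62 with C1ql1, near its values with the mature genes Cnp (0.61) and Fa2h (0.60). Enpp6 was highest on vehicle replicate 5 (8.57) and lowest on vehicle replicate 3 (7.11) and MSC replicate 1 (7.20). Gpr17 was highest on vehicle replicate 1 (10.04) and lowest on vehicle replicate 2 (9.31) and MSC replicate 1 (9.32). These pairs were picked out of all pairs after their values were seen. Bcas1 and Neu4 did not share the pattern: Bcas1 correlated at 0.31 with Enpp6 and 0.18 with Gpr17, and Neu4 at -0.11 and -0.18. The astrocyte score correlated at 0.63 with Gpr17 and 0.73 with C1ql1, and at 0.26 with Enpp6, and its part in these correlations was not tested. Between groups, Enpp6 differed by -0.025 ± 0.21 (SE), Gpr17 by 0.11 ± 0.12 and C1ql1 by 0.11 ± 0.094.

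Neither surface marker of precursors separated the groups. Pdgfra, the receptor that drives precursor division, read 10.39, 10.57 and 11.04 in MSC and 10.27, 10.44 and 10.83 in vehicle arrays (0.072 ± 0.11, SE). Cspg4, the NG2 proteoglycan, differed by 0.034 ± 0.047 and varied little on any array, from 6.77 to 6.99. Pdgfra is also made by fibroblasts of the meninges, and its highest value came from MSC replicate 2, the array with the highest meningeal score. Over 14 arrays Pdgfra correlated at 0.77 (rho = 0.70) with the meningeal score and at 0.39 without MSC replicate 2 and vehicle replicate 2. With the astrocyte score it correlated at 0.70 (rho = 0.56), and at 0.31 without MSC replicate 2 and vehicle replicate 1. The part of meningeal tissue or of astrocytes in the level of Pdgfra was not tested. With MSC replicate 2 and vehicle replicate 2 left out its difference was 0.050, and without MSC replicate 2 alone it was -0.00016.

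Among the transcription factors of the lineage, Olig1 and Olig2 had lower means in MSC arrays and Sox10 did not. Olig2 read 7.12, 7.32 and 7.54 in MSC and 7.0, 7.70 and 8.03 in vehicle arrays (-0.26 ± 0.16, SE; unadjusted p = 0.11). All 7 MSC arrays lay below the vehicle mean of 7.60, but 3 vehicle arrays did so as well, so that the groups overlapped. Olig1 read 10.05, 10.25 and 10.95 against 9.94, 10.76 and 11.16 (-0.22 ± 0.19, unadjusted p = 0.27). Sox10 differed by 0.027 ± 0.073.

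The size of the Olig differences moved with single arrays. For both genes the lowest vehicle value was replicate 2, and without that array Olig2 stood at -0.36 and Olig1 at -0.34. Other single arrays shrank them, Olig2 to -0.19 without vehicle replicate 1 and Olig1 to -0.13 without vehicle replicate 6. Without MSC replicate 4 and vehicle replicate 2, both genes had an unadjusted p below 0.05 with differences of -0.39 (Olig2) and -0.43 (Olig1), and neither passed the adjustment. Within replicates 6 and 7, with 2 arrays per group, Olig2 differed by -0.50, and within replicates 1 to 5 by -0.17. The pair correlated at 0.63 (rho = 0.59) over the 14 arrays. Olig1 followed Cldn11 more closely (r = 0.89) and Olig2 followed Cnp (r = 0.83).

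Cspg5, a membrane chondroitin sulfate proteoglycan that neurons also make, was the only member with an unadjusted p below 0.05 when all arrays were used. It read 9.10, 9.70 and 9.84 in MSC and 9.67, 9.91 and 10.10 in vehicle arrays, a difference of -0.26 ± 0.10 (SE; unadjusted p = 0.024, adjusted p = 0.9999 in limma). All 7 MSC arrays lay below the vehicle mean, and vehicle replicates 3 (9.67) and 5 (9.76) lay within the MSC range. MSC replicate 4 was far below the rest at 9.10, and without it the difference was -0.17 (unadjusted p = 0.033 in limma). Without vehicle replicate 6 the difference was -0.23 and the unadjusted p no longer passed (0.052 in limma). That was the only single array whose removal had this effect. Cspg5 was also the gene that ran most against the mature genes, with r = -0.42 to their mean, a value that became 0.15 without MSC replicate 4.

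None of the remaining lineage genes passed the adjusted threshold. Matn4, a matrix adaptor protein, differed by -0.16 ± 0.084 (SE) and Neu4, a sialidase, by -0.17 ± 0.10, or by -0.12 in its second probe set. For Matn4 the highest value was vehicle replicate 2 (6.65), the array with high choroid plexus and meningeal markers, and without it the difference was -0.087. Bcas1, a marker of newly forming oligodendrocytes, differed by -0.091 ± 0.12 and Lhfpl3 by 0.0018 ± 0.11. Of the 12 precursor and lineage genes, Bcas1 (r = 0.83), Lhfpl3 (0.81), Olig1 (0.72) and Sox10 (0.67) followed the mean of the mature genes most closely. Pdgfra, Cspg4, Cspg5 and Matn4 had correlations below 0 with it. Without MSC replicate 4 the value for Sox10 was 0.42, below those for Neu4 (0.52) and Olig2 (0.50). Between groups, 6 of the 12 had lower and 6 higher means in MSC arrays.

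The contrast of mature with precursor genes lay within the spread between arrays. The mature score minus the precursor score averaged 0.027 ± 0.19 over the MSC and -0.027 ± 0.18 over the vehicle arrays (SD, n = 7 each), a difference of 0.055 ± 0.098 (SE). It ran from -0.25 on MSC replicate 3 to 0.37 on MSC replicate 4, and from -0.22 on vehicle replicate 2 to 0.21 on vehicle replicate 5. Without MSC replicate 4 the difference was -0.0026. The precursor score ranged less over arrays (1.28-fold), and it correlated at 0.74 (rho = 0.76) with the mature score, over arrays that share RNA and scaling.

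Genes of the pathway outside these lists were counted too. Of 30 further genes of myelin and mature oligodendrocytes, 27 were measured, 0 passed the adjusted threshold, 16 had lower and 11 higher means, and their median difference was -0.035. Mag, an adhesion protein of the innermost myelin layer, differed by -0.045 ± 0.19 (SE), Pllp, a myelin proteolipid, by -0.14 ± 0.16, Cryab, a small heat shock protein, by -0.17 ± 0.081 and Gjc3, a connexin of oligodendrocytes, by -0.18 ± 0.14. The score of these 27 genes followed the mature score at r = 0.96 (rho = 0.96), over arrays that share RNA and scaling. Of 24 further precursor and differentiation genes, 22 were measured, 0 passed, 13 had lower and 9 higher means, and the median was -0.014. Pcdh15, a protocadherin of precursors, differed by -0.18 ± 0.072, Megf11 by 0.086 ± 0.058, Vcan, the versican proteoglycan, by -0.069 ± 0.066 and Sox6 by -0.045 ± 0.050.

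Markers of other cells were set beside the mature score, since the labels do not say how much white matter or neighbouring tissue the samples held. Astrocyte markers correlated with it at 0.024, microglia markers at -0.41, cortical neuron markers at 0.33, deep layer markers at -0.062, upper layer markers at -0.37 and layer 6b markers, of the neurons next to the white matter, at -0.48. Without MSC replicate 4 the upper layer value was -0.039 and the layer 6b value -0.17. Striatal markers stood at -0.10, meningeal at -0.44, endothelial at -0.15, interneuron at -0.16 and choroid plexus at 0.13. Without MSC replicate 4 the sign turned for choroid plexus (-0.39), interneuron (0.28) and endothelial markers (0.16), and without MSC replicate 6 and vehicle replicate 2 as well the endothelial value was 0.64. Of the arrays with high choroid plexus markers, MSC replicate 4 had the highest mature score and vehicle replicate 2 the second lowest. Of 4 Schwann cell markers, which would mark nerve myelin, 3 were measured. Prx, a protein of Schwann cell myelin, read 4.76 ± 0.075 in MSC and 4.76 ± 0.059 in vehicle arrays (SD, n = 7 each), below the dim mark. Pmp22, a membrane protein of nerve myelin, and Egr2, a transcription factor that neurons also make, were above it, and the 3-gene score ran from -0.49 to 0.21 in MSC and from -0.19 to 0.35 in vehicle arrays. No gene of these marker lists passed the adjustment. How much white matter each piece of tissue held was not tested.

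**Figure D5:**
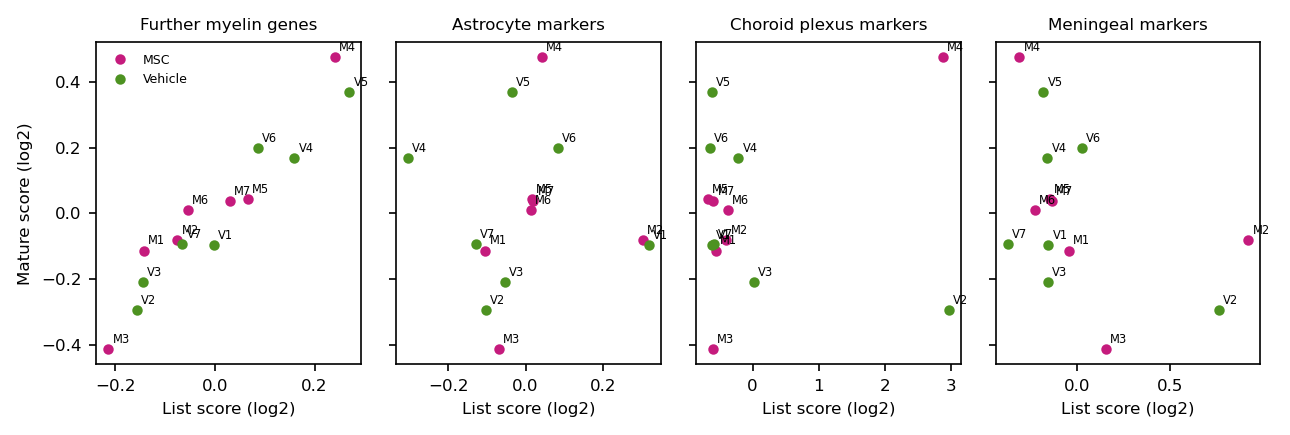
Mature score of each array (vertical axis, log2) against the score of further myelin genes, astrocyte, choroid plexus and meningeal markers (horizontal axes, log2), MSC arrays in pink and vehicle arrays in green, M and V with replicate numbers. Further myelin genes rise along with the mature score (r = 0.96), while the choroid plexus panel sets MSC replicate 4 and vehicle replicate 2 apart at 2.87 and 2.96.

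The direction in which the mature genes leaned changed with the arrays included. With all arrays 12 of 19 had lower means in MSC, with a median of -0.031. The mature genes covary, so such counts are not 19 separate observations. MSC replicate 4 had the highest mature score of its group (0.48) and vehicle replicate 2 the lowest of its group (-0.29). Leaving both out therefore lowers the mature difference in any case. Without MSC replicate 4 and vehicle replicate 2, 18 of 19 had lower means with a median of -0.16, beside 51.7% of all named genes. In that setting 4 of 31 members (Qdpr, Olig1, Olig2 and Cspg5) and 2100 of the 68842 probe sets had an unadjusted p below 0.05. Without MSC replicate 6 as well, the striatal array, it was 18 of 19 with a median of -0.17, beside 55.3% of all named genes. There Ugt8 joined them, making 5 of 31, with 2356 probe sets at that cutoff. The smallest adjusted p of any member in any alternative was 0.942 in limma. Without MSC replicate 3, the array with the lowest mature score, 8 of 19 had lower means and the median was 0.057. The signal of dap, a spike-in control, was 7.45 to 8.12 on replicates 6 and 7 of both groups and 8.35 to 9.92 on replicates 1 to 5, a split that no label names. Within replicates 1 to 5 the mature median was -0.059, and within replicates 6 and 7 it was -0.0074.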

How the data were processed

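Gene expression was measured in 14 samples of rat motor cortex on Affymetrix whole-transcript arrays from 100 ng of total RNA each. The authors deposited log2 values. The submitters' processing notes name RMA and Expression Console. No version, setting or genome build is named in the sources used here. RMA equalises signal distributions across arrays and can hide a shift shared by most transcripts. Values ran from 2.74 to 19.9.

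Of 70580 probe sets, 1738 control probe sets (31 AFFX, 155 ERCC, 1552 RG) were left out. Of the 68842 tested, 23446 had 1 gene symbol, 505 several and 44891 none in the platform annotation. Symbols were updated through Entrez identifiers and RefSeq (GRCr8), which changed 1. The main test was limma (version 3.58.1, R 4.3.3) on group alone, through lmFit and eBayes. P-values were adjusted by Benjamini-Hochberg across the tested probe sets, and calls were made at 0.05. Arrays were grouped by title. Their number limits the precision. The fit was tested on simulated data. Correlations and scores carry no test. Promoter motifs were counted with Python 3.11.15.

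All members may be named. From other lists the first 2 genes and the 2 with the smallest p are named. Members and lists were chosen with earlier results of these data known. Alternatives were another normalization, filters, blocks, weights, probe set choices and left-out arrays.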

Additional observations from a re-analysis of the deposited data

Results flagged for a closer look

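In 62 sets of 7 arrays (31 genes in 2 groups), 2 held an array whose gap to its nearest neighbour was large against the range of its group. Chance alone gives about 1 in 20. Cspg5 read 9.10 on MSC replicate 4, against 9.63 for the next lowest MSC array and 9.84 for the highest. Qdpr read 11.15 on vehicle replicate 4, against 10.73 for the next highest vehicle array and 10.48 for the lowest. None of the 6 sets of array scores held such an array.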

How the results depend on the processing

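In 29 alternatives, of which 14 leave out 1 array and 2 were chosen after seeing the data (without MSC replicates 2 or 4 together with vehicle replicate 2), 0 members passed the adjusted threshold. Over all probe sets 0 passed, except 1 within replicates 6 and 7. Leaving out 1 array moved the mature median between -0.10 (without MSC replicate 4) and 0.057 (without MSC replicate 3), the precursor median between -0.11 and -0.0059, and the mature minus precursor difference between -0.0026 and 0.10. With other alternatives these ran from -0.17 to -0.0074, from -0.088 to -0.029 and from -0.055 to 0.078. Scaling changed 1 mature gene: 11 of 19 had lower means after repeated quantile normalization or median centring, against 12. Probe sets at an unadjusted p below 0.05 numbered 2345, and 1007 with dim probe sets left out, where fewer were tested. The replicate block, which gives equal differences with balanced pairs, left 0 calls and the medians at -0.031 and -0.045. There Qdpr (unadjusted p = 0.014 in limma) and Cspg5 had an unadjusted p below 0.05, as did 2278 of the 68842 probe sets. The deviations of same-numbered arrays correlated at -0.18 to 0.39, which does not settle whether the numbers pair the arrays. With MSC replicate 7 counted as vehicle, Qdpr stood at -0.16 and Hapln2 at 0.42. The 7 arrays per group limit what could be found.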
